A study of Rattus norvegicus with 24 samples.

Results

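Infarcted left ventricle carrying a sutured patch was compared with left ventricle of sham-operated rats, 6 RNA sequencing libraries on each side and 12 of the 24 libraries in the series. The members were taken from the treatment given in the sample labels, Sutured patch or Sham. All libraries came from Sprague Dawley rats, an outbred laboratory strain, and from left ventricle at day 7 after the operation. Both groups with an infarct used here, MI (infarct alone, 6 libraries) and Sutured patch (infarct plus a patch held by stitches), were sampled from the infarct region, while the site sampled in Sham ventricle is not stated in the labels. The remaining group, Microneedle patch (infarct plus a patch that anchors itself by microneedles, 6 libraries), is given only where its values bear on the sutured patch. The labels name neither the material of the sutured patch nor the age or sex of the animals, and no group had a patch without an infarct. Nor is it stated that every library had its own rat; the p-values cover variation from library to library, which may be technical.

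When a coronary artery is blocked, the heart muscle it feeds dies within hours. Inflammatory cells then enter, dead muscle is cleared, and fibroblasts and new vessels fill the gap with granulation tissue that matures into a collagen scar. A patch on the surface adds mechanical support and, like any implant, a foreign surface, and stitches add small wounds of their own. In whole-tissue RNA a transcript can fall because its cells are fewer or because each cell makes less of it, and these cannot be told apart.

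The deposited table identifies genes by rat Ensembl gene ID without symbols, and 0 of its 32883 IDs could be paired with a name here. The defining markers of heart muscle, scar or immune cells could therefore not be looked up, and the labelled tissue could not be checked against them. Genes are described as groups by their behaviour, and 4 IDs are given in full. Sham libraries held 5443782 to 11757562 counts and 13635 to 16449 genes with at least 1 count, against 12574300 to 14437712 counts and 16359 to 17404 genes with the sutured patch and 12864218 to 13974505 counts in MI. Every Sham library was shallower than every library with an infarct, so depth and the Sham group cannot be told apart except by thinning the counts. Sham replicates 4 and 5 stood apart from the other Sham libraries, and some results are also given without them.

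At day 7 the tissue under a sutured patch differed from Sham ventricle across close to every second gene that could be tested. Of 14540 genes tested, 6975 were called at an adjusted p below 0.05 (edgeR quasi-likelihood test, Benjamini-Hochberg adjustment), which is 48.0% of the genes. Higher genes numbered 3511 (24.1% of those tested) and lower genes 3464 (23.8%). The directions were balanced in number but, over all called genes together, not in size. The median log2 fold change was 1.36 among the higher genes, with quartiles of 0.82 and 2.32, and -1.16 among the lower genes, with quartiles of -1.87 and -0.73. Over all genes tested it was -0.03.

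Steep rises outnumbered steep falls. A rise of at least 4-fold was seen in 1109 genes and a fall of that size in 746. At 16-fold or more the numbers were 281 and 37. At the other end, 401 of the higher and 521 of the lower genes differed by less than 1.5-fold. When the test asked for a change beyond 1.5-fold, 3984 genes were called, 2128 higher and 1856 lower. With every library thinned to 5443782 counts, 6409 genes were called, and without Sham replicates 4 and 5 the number was 7784. Fitted on the Sham and sutured patch libraries alone, it was 4979, with 2433 higher and 2546 lower. MI against Sham, which shares the Sham libraries, had 6504 called genes (44.7%), with 932 rises and 394 falls of at least 4-fold.

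The share of genes called grew with abundance. CPM, the count of a gene scaled to the total of its library, was averaged over the 12 libraries. Among the 819 tested genes below 1 CPM, 36.9% were called, and rises made up most of them (31.9% higher, 5.01% lower). The filter on low counts used all 4 groups, and only Sham had no infarct. A rare gene low in Sham could pass it through the other groups, which favours rises in this class. Among the 84 genes of 1000 CPM or more, 78.6% were called, with falls ahead (33.3% higher, 45.2% lower). The most abundant transcripts were thus the part most often called, which does not show that they were most often changed. Genes neither called nor within 1.5-fold of Sham made up 63.0% below 1 CPM and 13.1% at 1000 CPM or more. The size of changes also depended on abundance. Below 1 CPM the median log2 fold change was 2.92 for called rises and -2.25 for called falls. Between 100 and 1000 CPM the medians were 1.06 and -1.21, and at 1000 CPM or more 2.10 and -2.29. The larger size of rises was therefore not seen among genes of 100 CPM or more. The standard error of a log2 fold change had a median of 0.68 below 1 CPM and 0.20 between 100 and 1000 CPM, so that small changes of rare transcripts could not be detected at this depth.

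**Figure D1:**
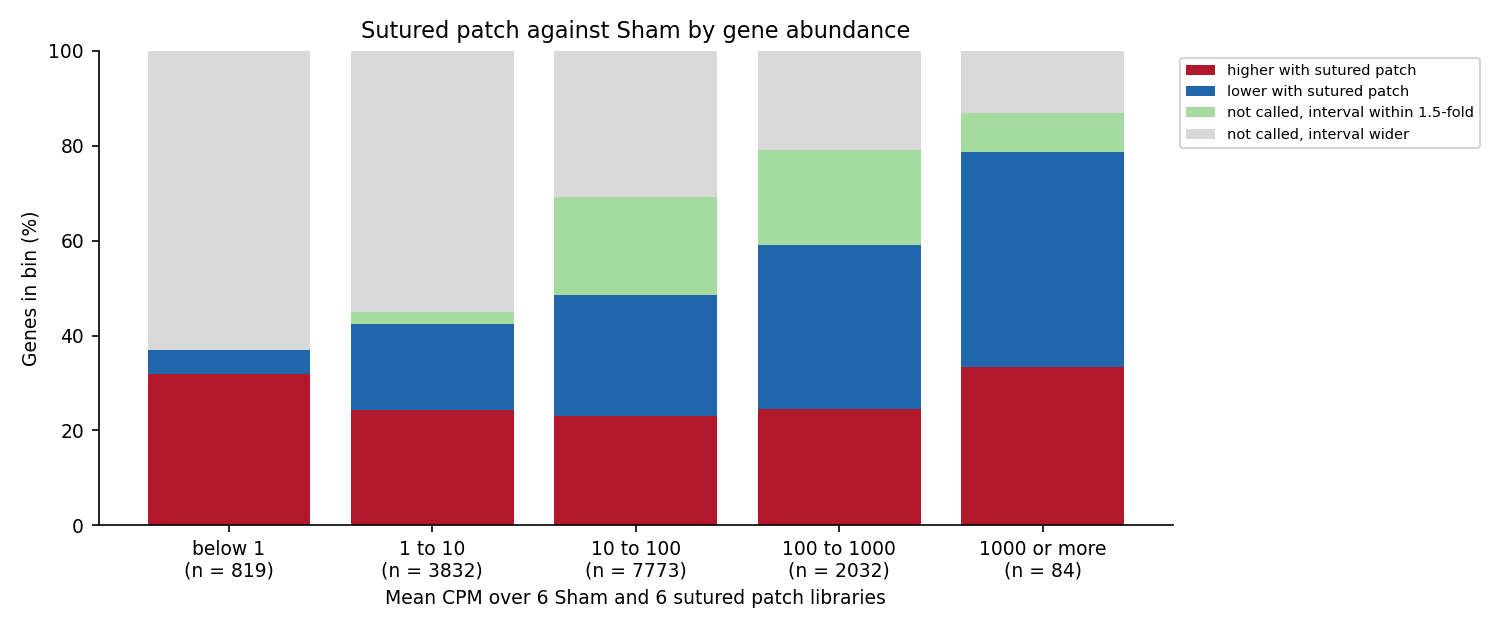
Percent of tested genes (vertical axis) in 5 classes of mean CPM over the 6 Sham and 6 sutured patch libraries (horizontal axis, number of genes in brackets), split into genes called higher, called lower, not called with a 95% interval within 1.5-fold of Sham, and not called with a wider interval. The called share rises from 36.9% below 1 CPM to 78.6% at 1000 CPM or more, and the unresolved share falls from 63.0% to 13.1%.

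The lists of the most abundant transcripts in the 2 tissues overlapped in part. Of the 100 genes with the highest mean CPM in Sham, 68 were lower and 8 higher with the sutured patch, and 41 were still among its own top 100. These 100 genes held 22.4% ± 2.13 of counts in Sham, 18.4% ± 0.75 in MI and 16.8% ± 1.20 under the sutured patch, as means ± SD over 6 libraries each. Of the top 100 of the sutured patch tissue, 61 were higher and 13 lower than in Sham. Their share of counts was 24.3% ± 0.84 there, 14.2% ± 0.72 in Sham and 25.3% ± 2.03 in MI. Each top 100 was picked by its level in a group that is compared. The choice favours the share in that group, falls in the Sham list and rises in the sutured patch list. Over all genes tested 24.1% were called higher and 23.8% lower.

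The shift in composition was large when all called genes were summed. The 3511 higher genes held 14.004% ± 0.62 of counts in Sham (SD, n = 6; 12.9% to 14.6%) and 42.5% ± 2.45 with the sutured patch (40.2% to 46.3%). The 3464 lower genes held 47.7% ± 3.79 in Sham (43.1% to 51.9%) and 18.005% ± 2.19 with the sutured patch (14.7% to 20.9%). The ranges of the groups did not meet for either set; both sets were selected in these libraries, which fixes that separation. In MI the same genes held 41.1% ± 3.98 and 21.2% ± 3.59.

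A small group of transcripts was barely detected in Sham. It comprised 90 called genes that had 3 counts or fewer summed over Sham and a mean of 1 CPM or more with the sutured patch. In 82 of them every sutured patch library had a count, which the minimum of 1 CPM favours. The reverse, 3 counts or fewer summed over the sutured patch libraries and 1 CPM or more in Sham, held for 1 called gene. Sham libraries were shallower, which favours low sums there. The filter on low counts, run over all 4 groups, also favours genes absent only in Sham. The 90 genes had a median of 2.06 CPM with the sutured patch, within a range from 1.01 to 131, and 0.78 CPM in MI. For the 44 genes with no count in any Sham library, the sutured patch mean was at least 48.6-fold higher on median (from 21.0 to 2508), taking 3 counts over the group as the floor (0.0522 CPM). The floor covers counting error only. Of the 90 genes, 15 were not called in MI against Sham. Among all 6975 genes called with the sutured patch, 1801 were not called in MI. Over all genes tested 44.7% were called in MI.

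Single libraries were less uniform than the group means. In 1847 of the higher genes (52.6%) all 6 sutured patch libraries lay above all 6 Sham libraries, and in 1116 of the lower genes (32.2%) all 6 lay below. Over all 14540 genes tested, called or not, this held for 1851 genes above Sham (12.7%) and 1116 below (7.68%), and being called favours it. Taken library by library, sutured patch replicate 3 lay above every Sham library in 87.5% of the higher genes and replicate 2 in 76.3%. For the lower genes replicate 6 lay below every Sham library in 70.4% and replicate 2 in 53.9%. Among called genes, overlap with Sham was more common for those that fell. Sham replicate 5 stood lowest of the Sham libraries in both sets. Its median log2 difference from the mean of the other Sham libraries was -0.22 in the lower and -0.20 in the higher genes. Its part in the overlap was not tested.

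How far the tissue remained from Sham was measured as 1 value per library, the root mean square difference from the mean of the Sham libraries in log2 CPM over the 14540 genes. Sutured patch replicates 1 to 6 stood at 1.27, 1.43, 1.44, 1.33, 1.31 and 1.62. MI replicates 1 to 6 stood at 1.09, 1.20, 1.37, 1.27, 1.21 and 1.22. The sutured patch libraries lay farther from Sham than MI libraries on average, 3 of 6 above every MI library, and none lay nearer to Sham than the nearest MI library.

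The mean distance was 1.40 ± 0.13 with the sutured patch and 1.23 ± 0.09 in MI (SD, n = 6 each). The difference of 0.17 had a 95% interval from 0.04 to 0.32 by inversion of the exact two-sided permutation test, which gave p = 0.0216 (the smallest it can give is 0.00216). The sutured patch library lay farther than the MI library of the same number in 6 of 6 pairs; whether the numbers pair the libraries is not stated, and an exact test on pairs, added after the data were seen, gave p = 0.0312, the smallest it can give. Libraries of the sutured patch group also varied more among themselves, and a noisier library lies farther from any mean. Their root mean square difference from the mean of the other 5 libraries of the group had a median of 0.60 (0.46 to 0.80), against 0.42 (0.37 to 0.52) in MI. Between group means, where much of this spread averages out, the distance from Sham was 1.30 with the sutured patch and 1.17 in MI. The part of the spread in the difference was not tested.

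Sham libraries were themselves scattered. Measured from the mean of the other 5, they stood at 0.85, 0.59, 0.84, 1.18, 1.57 and 0.62 for replicates 1 to 6, so that replicate 5, the shallowest library, lay beyond every sutured patch library except replicate 6. Without replicates 4 and 5 the Sham distances ran from 0.50 to 0.92, the sutured patch distances from 1.28 to 1.62 and the MI distances from 1.09 to 1.37. Infarcted and Sham libraries then did not overlap. Replicates 4 and 5 were the Sham libraries farthest out by this same measure, so leaving them out favours that, and nothing is read from it. The difference between sutured patch and MI was 0.18 without them (exact permutation test, two-sided p = 0.013).

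A second measure weighted genes by their counts and did not separate the sutured patch from MI. It is the percent of counts that would have to move to other genes to give the mean Sham composition, and was chosen after the data were seen. It averaged 33.9% ± 2.36 with the sutured patch (31.5% to 37.7%), 32.04% ± 3.55 in MI (26.3% to 36.9%) and 17.9% ± 7.76 in Sham (SD, n = 6 each). The difference between sutured patch and MI was 1.91 percentage points, with an interval from -1.85 to 5.84 (exact permutation test, two-sided p = 0.299). Microneedle patch libraries stood at 1.48 to 1.60 log2 units and at 37.7% to 39.04%. The extra distance of the sutured patch over MI was thus seen by the first measure and not settled by the second. A p over the threshold does not show that the distances were alike. By the first measure over genes averaging at least 10 CPM, the difference was 0.14 (exact permutation test, two-sided p = 0.0476). Why the measures differed was not tested.

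**Figure D2:**
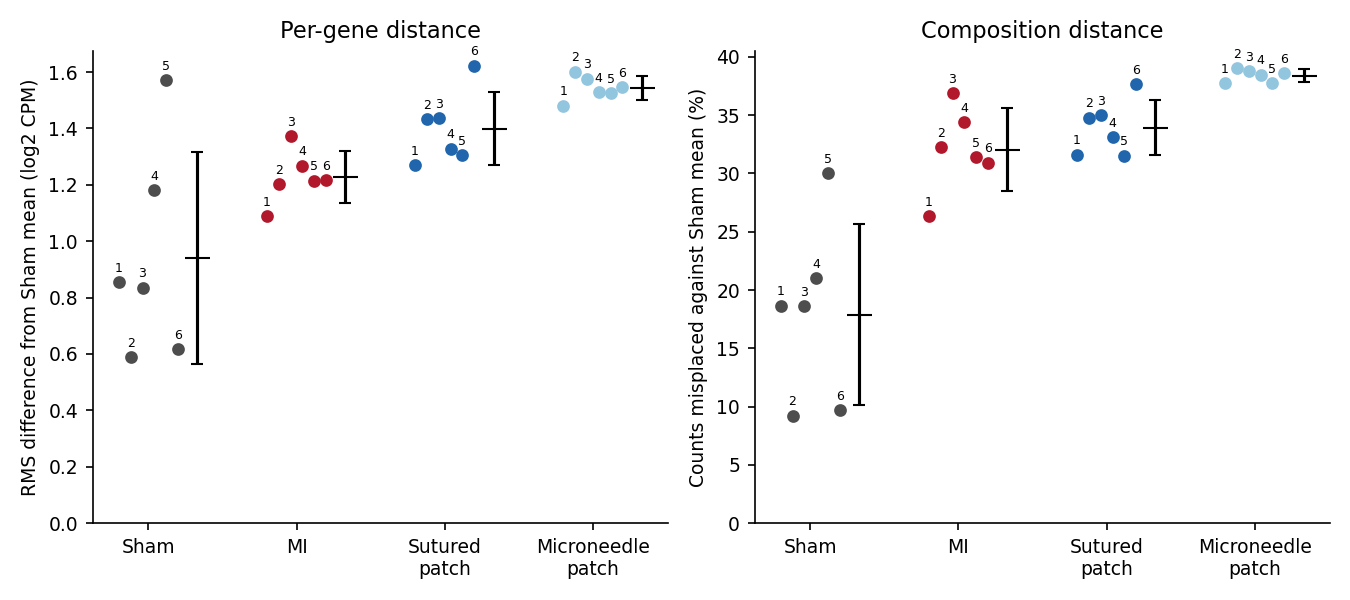
Distance of each library from the mean Sham library (a Sham library from the mean of the other 5), as root mean square difference in log2 CPM over 14540 genes (left) and as percent of counts misplaced (right), by group. Points are libraries with their replicate number, and bars are means with SD (n = 6). On the left, sutured patch libraries stand at 1.27 to 1.62 and MI libraries at 1.09 to 1.37; on the right they overlap.

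The distance was spread over many genes. The 957 genes that differed most (6.58% of those tested) held 50% of the summed squared difference between the group means. Genes with a higher mean under the sutured patch, called or not, contributed 66.5% of it and those with a lower mean 33.5%. Genes between 1 and 10 CPM made up 26.4% of the genes and 36.7% of the squared distance. Those between 10 and 100 CPM made up 53.5% and 40.2%. The 84 genes of 1000 CPM or more were 0.578% of the genes and held 1.75% of it. Transcripts between 1 and 100 CPM held most of this measure, and they were also most of the genes tested.

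Part of the transcriptome could be placed near Sham with confidence. For 2173 genes (14.9%) the 95% interval of the log2 fold change lay within 1.5-fold of Sham in either direction, and 67 of these were nevertheless called, as small changes measured precisely. Another 986 genes had an interval wholly below a 2-fold fall and 1358 an interval wholly above a 2-fold rise. Neither a call nor closeness could be stated for 5459 genes (37.5%). In MI against Sham, with the same Sham libraries, 2148 genes had intervals within 1.5-fold.

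Genes called with the sutured patch but not in MI, each against the same Sham libraries, numbered 1801, with 925 higher and 876 lower. None of them passed the test in MI, and 207 higher and 244 lower genes had an adjusted p below 0.1 there (edgeR). On median they lay on the same side of Sham in MI and nearer to it; the Sham libraries are shared. Among the 925 higher genes the median log2 fold change against Sham was 0.85 with the sutured patch and 0.33 in MI, and among the 876 lower genes it was -1.05 and -0.46. A missed threshold in MI does not show that MI lacks a change. The MI interval lay within 1.5-fold of Sham for 243 of the 925 and 132 of the 876 genes.

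The direct comparison of sutured patch with MI called 661 genes (4.55% of those tested). It narrowed the 1801 genes to 239 that were called against Sham, called in the same direction against MI and not called in MI against Sham. Of these, 180 were higher and 59 lower in sutured patch tissue. These 3 comparisons share libraries and the set was chosen by its values, so its levels are a description.

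The 180 higher genes were of low to middling abundance, with a median of 18.5 CPM with the sutured patch, 7.43 in MI and 6.33 in Sham. Their median log2 fold change against Sham was 1.40 with the sutured patch (quartiles 0.76 and 2.82) and 0.05 in MI (quartiles -0.16 and 0.42). Against MI it was 1.23, with 102 genes at 2-fold or more and 64 at 4-fold or more. Together they took 0.426% ± 0.046 of counts in Sham, 0.448% ± 0.041 in MI and, under the sutured patch, 0.885% ± 0.167 (SD, n = 6 each). For 49 of them the MI interval lay within 1.5-fold of Sham. This was a minor part of the transcriptome that stood at Sham level in MI on median and well above it with the sutured patch.

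The 59 lower genes were more abundant and moved less. Their median was 20.6 CPM with the sutured patch, 40.5 in MI and 38.6 in Sham. The median log2 fold change was -1.07 against Sham and -1.08 against MI, with -0.06 in MI against Sham, and 5 genes were lower than in MI by 4-fold or more. Their share of counts was 0.614% ± 0.086 in Sham, 0.620% ± 0.095 in MI and, under the sutured patch, 0.351% ± 0.072 (SD, n = 6 each). For 18 of them the MI interval lay within 1.5-fold of Sham.

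The rise of the 180 genes was shared by the 6 libraries in unequal measure. As the median log2 difference from the Sham mean, sutured patch replicates 1 to 6 stood at 0.99, 1.57, 1.49, 1.36, 1.17 and 1.44, while MI libraries ran from -0.04 to 0.32. All 6 sutured patch libraries lay above all 12 Sham and MI libraries for 69 of the 180 genes. Over all 14540 genes this held for 258 (1.77%), and nothing is read from the contrast, since the 180 were chosen by these values (called higher than Sham, 24.1% of all tested). The highest library was replicate 6 for 55 genes, replicate 2 for 54, replicate 3 for 38, replicate 4 for 26, replicate 5 for 7 and replicate 1 for none of them. In 19 genes a single library held over 50% of the summed CPM of the group. Replicate 1 was thus the least displaced library by this set as well as by the distance over all genes.

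For the 59 lower genes replicates 1 to 6 stood at -0.61, -1.20, -1.03, -1.02, -0.74 and -1.29, and MI libraries between -0.20 and 0.28. All 6 lay below all 12 Sham and MI libraries for 11 genes, and over all 14540 genes for 56 (0.385%). These genes too were chosen by these values (called lower than Sham, 23.8% of all tested), and nothing is read from the contrast. The lowest library was replicate 2 for 22 genes and replicate 6 for 18. Sutured patch replicate 2 also had the fewest detected genes of its group, 16359 against 17155 to 17404 in the others; its part in the low values was not tested.

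Microneedle patch libraries entered the choice of the 239 genes only through the filter on low counts, the scaling and the shared estimate of spread. Without them the set held 145 genes. In microneedle patch libraries the 180 genes stood 0.94 to 1.38 above the Sham mean as a library median, and the 59 genes between -1.09 and -0.58. These values lie close to those of the sutured patch and outside the MI ranges. Choosing the genes by their Sham and MI levels favours a distance from both, so nothing is read from the distance itself. The genes that set the sutured patch apart from MI are therefore not shown to be particular to suturing.

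**Figure D3:**
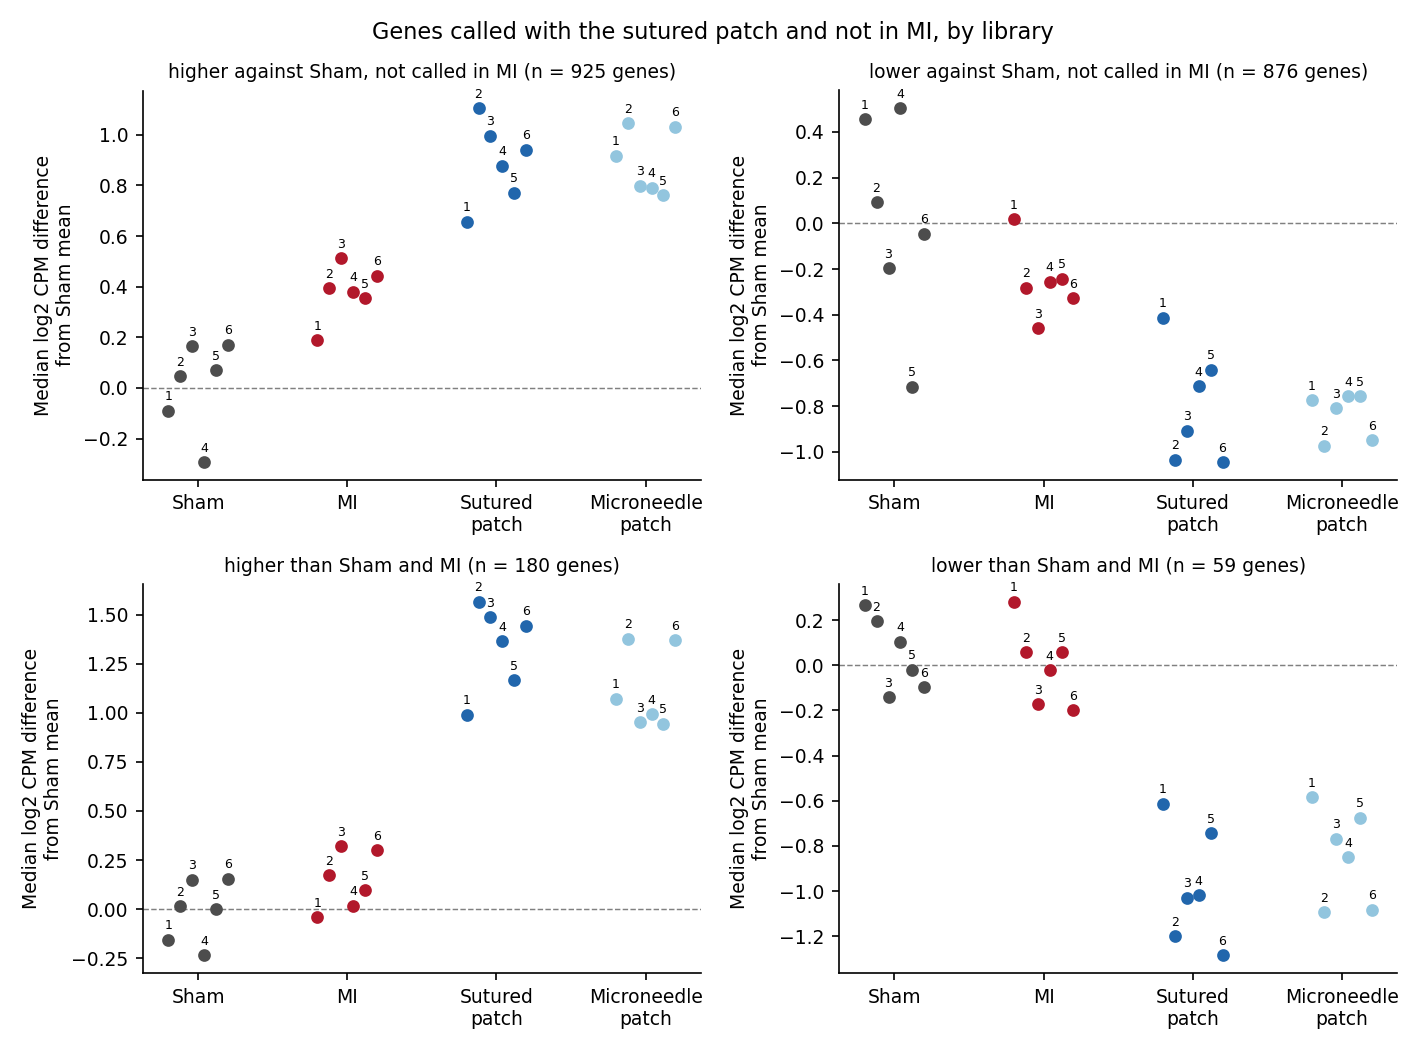
Median log2 CPM difference from the Sham mean (vertical axis) of the genes called with the sutured patch and not in MI (top row, 925 higher and 876 lower) and of those also called against MI (bottom row, 180 higher and 59 lower), with 1 numbered point per library in each group. In the bottom row MI libraries lie around 0 (-0.04 to 0.32 and -0.20 to 0.28) and sutured patch libraries at 0.99 to 1.57 and -1.29 to -0.61; the genes were chosen by these values.

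The size of the set of 239 genes depended on single libraries. It was 101, 137, 136 and 130 without MI replicates 1, 2, 4 and 5, and 159, 132 and 112 without sutured patch replicates 2, 3 and 6. It was 485 without Sham replicate 5 and 573 without Sham replicates 4 and 5. In all 18 fits that left out 1 library of Sham, MI or the sutured patch, 63 genes stayed in the set, 49 higher and 14 lower. Over all 28 alternatives, which add other scalings, tools and a 1.5-fold minimum, 5 genes stayed, 4 higher and 1 lower.

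Among the higher genes of the set that averaged 5 CPM or more in the sutured patch or MI group, the largest log2 fold changes against MI were those of ENSRNOG00000018236 and ENSRNOG00000001806. Both passed that minimum only through the sutured patch group, where they stood high. Without its highest library ENSRNOG00000018236 averaged 3.30 CPM there. As both were picked for their size, their tests and separations describe genes chosen by these values. ENSRNOG00000018236 stood at 2.08, 2.08, 14.3, 5.79, 2.43 and 4.14 CPM in sutured patch replicates 1 to 6, at 0 to 0.81 CPM in Sham (14 counts in all) and at 0 to 0.147 CPM in MI (4 counts in all). Every sutured patch library lay above every Sham and MI library, and replicate 3 was the highest. Its log2 fold change was 4.30 against Sham (SE 0.75, edgeR adjusted p = 4.1e-05) and 6.43 against MI (SE 0.86, edgeR adjusted p = 0.000128). MI lay below Sham by 2.13 log2 units without passing the test (adjusted p = 0.0832). With the microneedle patch it averaged 1.90 ± 0.76 CPM (SD, n = 6).

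ENSRNOG00000001806 had no count in any Sham library and 17 counts over the MI libraries (0 to 0.69 CPM). With the sutured patch its replicates 1 to 6 stood at 1.94, 2.39, 2.21, 0.371, 51.6 and 14.3 CPM. Replicate 5 alone held 70.9% of the summed CPM, and replicate 4 lay within the MI range. The group mean of 12.1 CPM was at least 233-fold higher than Sham, with 3 counts over the Sham group as the floor; without replicate 5 the mean of the other 5 libraries was 4.24 CPM and the bound 81.2-fold. The edgeR adjusted p was 0.000278 against Sham and 0.0167 against MI, where the log2 fold change was 5.77 (SE 1.30). The direction was the same in 6 of 6 libraries against Sham and in 5 of 6 against the highest MI library.

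Among the lower genes of the set, with the same minimum of 5 CPM, the largest log2 fold changes against MI were those of ENSRNOG00000030848 and ENSRNOG00000030579. They too were picked for their size, so their tests and separations describe genes chosen by these values. ENSRNOG00000030579 passed the minimum only through MI, with a mean of 5.02 CPM against 1.64 CPM with the sutured patch. ENSRNOG00000030848 stood at 91.7, 17.2, 32.0, 33.2, 65.8 and 4.21 CPM in sutured patch replicates 1 to 6, at 471, 433, 146, 1051, 114 and 290 CPM in Sham replicates 1 to 6, and at 77.6 to 381 CPM in MI. All sutured patch libraries lay below all Sham libraries, and 5 of 6 below all MI libraries. The log2 fold change was -3.36 against Sham (SE 0.60, edgeR adjusted p = 5.98e-05) and -2.03 against MI (SE 0.57, edgeR adjusted p = 0.0421). MI was itself 1.33 log2 units below Sham on a value just over the threshold (log2 fold change -1.33, adjusted p = 0.0542), so its place among genes not called in MI rests on that threshold. It met all conditions of the set in 6 of the 18 fits that left out a library.

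ENSRNOG00000030579 was weakly expressed and was not called in MI against Sham (log2 fold change 0.40, edgeR adjusted p = 0.434). The interval ran from -0.43 to 1.23, beyond 1.5-fold of Sham, so closeness could not be stated for this gene. It stood at 3.05, 0.385, 1.11, 1.48, 2.87 and 0.934 CPM in sutured patch replicates 1 to 6, at 3.74, 2.99, 7.01, 3.28, 1.53 and 4.10 CPM in Sham replicates 1 to 6 and at 3.30 to 7.33 CPM in MI. The groups overlapped with Sham, since 4 of 6 sutured patch libraries lay below every Sham library, whereas all 6 lay below every MI library. The log2 fold change was -1.21 against Sham (SE 0.41, edgeR adjusted p = 0.0187) and -1.61 against MI (SE 0.41, edgeR adjusted p = 0.0267). Without Sham replicate 3 the value against Sham was -0.94 and lost the call (edgeR adjusted p = 0.0669). The call was also lost when each comparison was fitted on its 2 groups (edgeR adjusted p = 0.0739) and with a 1.5-fold minimum (edgeR adjusted p = 0.0814). It met all conditions of the set in 9 of the 18 fits that left out a library, against 16 for ENSRNOG00000018236 and 18 for ENSRNOG00000001806. Sharing of reads between these 4 IDs and overlapping or near-identical genes was not tested.

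**Figure D4:**
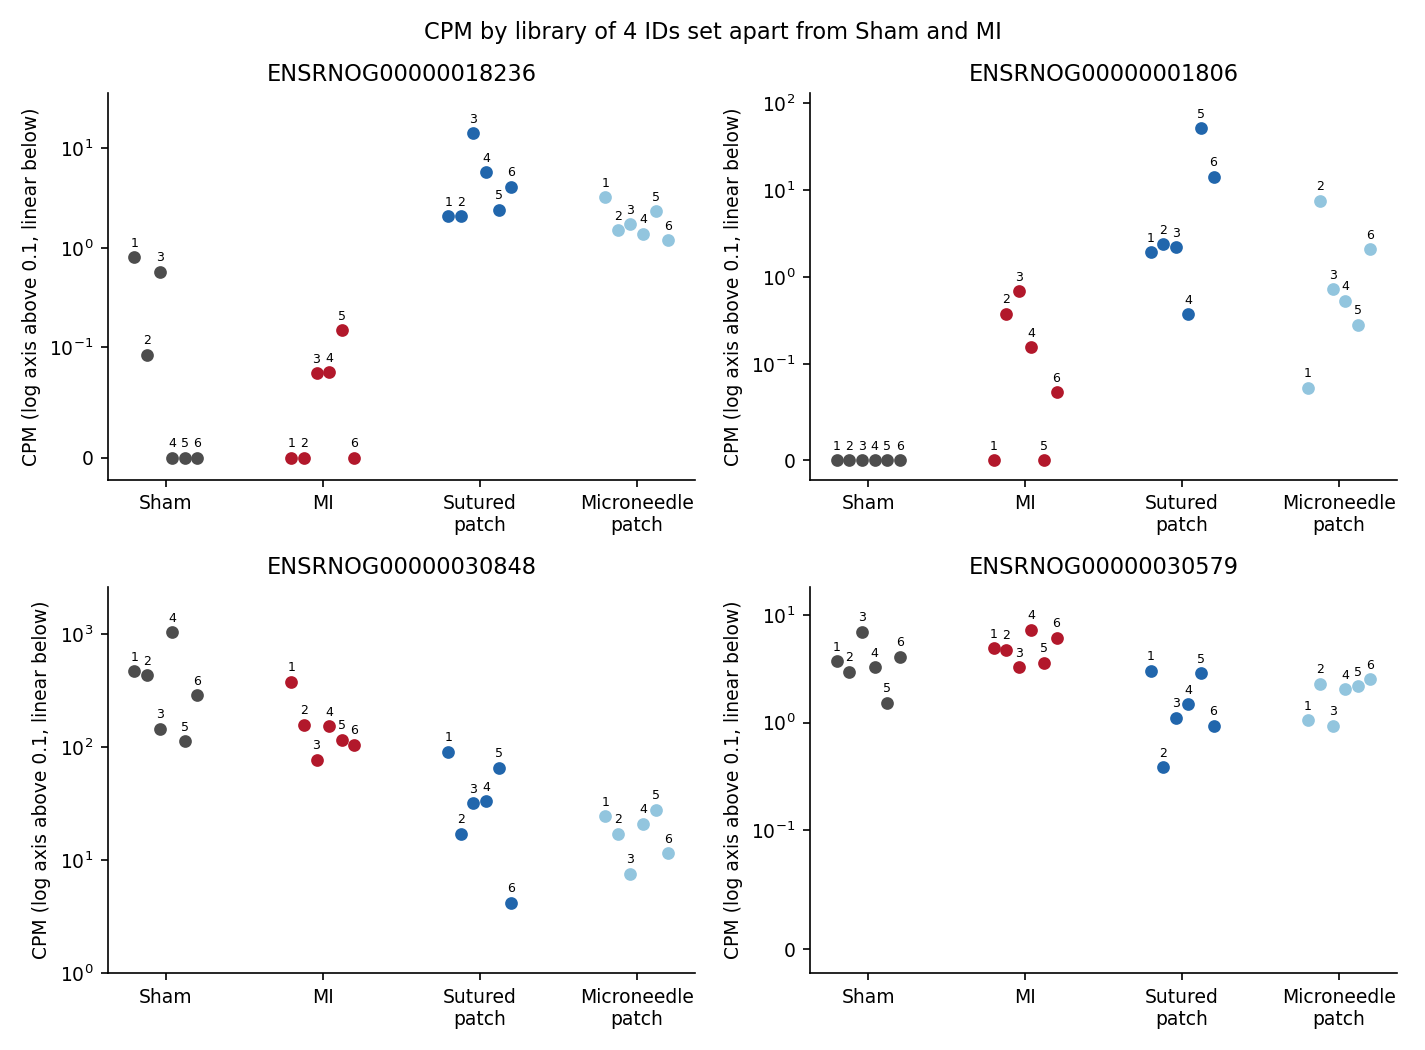
CPM by library (vertical axis, logarithmic above 0.1 and linear below) of the 4 IDs with the largest changes against MI (2 higher, 2 lower) among genes of at least 5 CPM in the set of 239, with 1 numbered point per library in the 4 groups. ENSRNOG00000001806 is at 0 in all Sham libraries and reaches 51.6 CPM in sutured patch replicate 5; ENSRNOG00000030848 falls from 114 to 1051 CPM in Sham to 4.21 to 91.7 CPM with the sutured patch.

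Genes called in MI against Sham and again between sutured patch and MI show where the sutured patch tissue stood relative to both. Both choices use the MI libraries, which favours opposite directions, so the values below describe the genes chosen. In 131 genes, higher in MI and lower again under the sutured patch, the log2 fold change against Sham had a median of 1.94 in MI and 0.79 with the patch. Of these, 80 were still called against Sham and 13 had an interval within 1.5-fold of it. In 56 genes, lower in MI and higher again with the sutured patch, the medians were -1.13 in MI and 0.02 with the sutured patch, with 11 called against Sham and 16 within 1.5-fold. Over all genes tested, 48.0% were called against Sham and 14.9% had an interval within 1.5-fold of it. The genes that came back up stood at Sham level on median, and those that came back down stood above it. Some passed Sham: 30 of the 56 genes stood above it and 27 of the 131 below it with the sutured patch.

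Other genes moved farther from Sham than in MI. In 164 genes higher in MI and higher still under the patch, the median log2 fold change against Sham was 1.65 in MI and 3.20 with the sutured patch. In 40 genes lower in MI and lower still with the sutured patch it was -1.03 and -2.11. By library, the 164 genes stood 2.45 to 3.76 above the Sham mean with the sutured patch and 1.17 to 1.87 in MI. The 131 genes stood at 0.57 to 1.12 with the sutured patch and at 1.91 to 2.08 in MI. All 4 groups of genes were small beside the 6975 that separated sutured patch tissue from Sham.

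**Figure D5:**
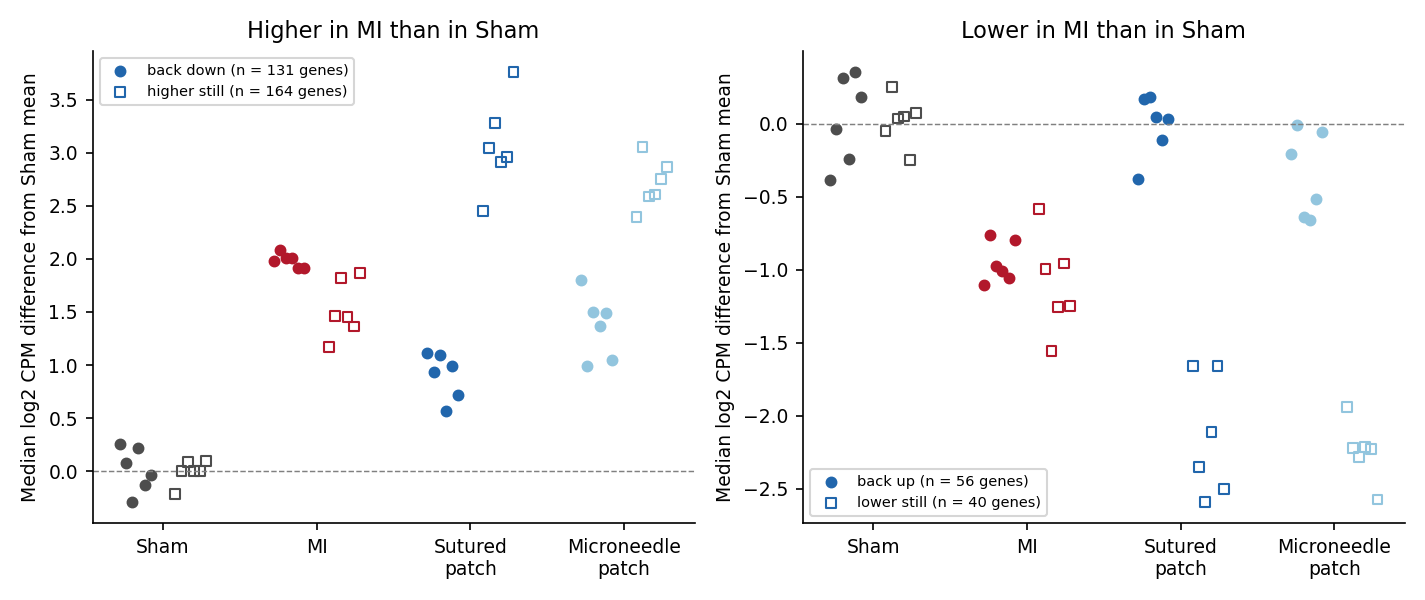
Median log2 CPM difference from the Sham mean (vertical axis) by library in each group, for genes higher in MI than in Sham (left) and lower in MI (right). With the sutured patch they moved back towards or past Sham (filled circles, 131 and 56 genes) or farther away (open squares, 164 and 40 genes). With the sutured patch the 131 genes stand at 0.57 to 1.12 and the 56 genes at -0.38 to 0.18; the genes were chosen by these comparisons.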

How the data were processed

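RNA was sequenced from rat left ventricle. The authors deposited whole-number counts of reads by Ensembl gene ID, not normalized, with a column for each library. Per the submitters' processing notes, HISAT2, featureCounts and the build rn6 were used; versions, annotation release, strand setting and treatment of reads with several mappings were not given in the sources used here. Libraries were made with a NEBNext Ultra kit from Trizol-extracted RNA, per the labels' protocols. Columns were matched to samples by the code in each title. The reference table of RefSeq genes (assembly GRCr8) held 0 Ensembl IDs, so 32 gene and marker lists could not be run and no sequence could be tied to an ID.

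Low genes were removed with filterByExpr (edgeR 4.0.16 under R 4.3.3; minimum count 10), leaving 14540 of 32883. Counts were scaled by TMM, and a model with 4 group means was fitted to all 24 libraries, with a robust quasi-likelihood F test, with Benjamini-Hochberg adjustment over all genes tested. Standard errors came from the F statistic. CPM uses TMM-scaled library sizes, log2 CPM a prior count of 2. Distances were compared by exact permutation. IDs were named by the rule: 2 each way with the largest log2 fold change against MI in the set apart from Sham and MI, at 5 CPM or more. The count tests were tested on simulated data. Alternatives were RLE scaling, DESeq2 1.42.0, limma 3.58.1 (voom with quality weights), no filter, other sets of libraries, a replicate block, a 1.5-fold minimum and thinning. The comparison, lists and tests were chosen with earlier results of these data known.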

Additional observations from a re-analysis of the deposited data

Results flagged for a closer look

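In groups of 6 libraries a value was looked at again when its gap to the nearest other library exceeded 0.625 of the group's range; chance gives about 1 in 20 groups, and 4 of 53 groups tested were marked. Sutured patch replicate 2 had 16359 genes with at least 1 count, below 17155 to 17404 in the other 5 libraries. ENSRNOG00000018236 reached 14.3 CPM in sutured patch replicate 3, with 5.79 CPM in the next library. ENSRNOG00000001806 reached 51.6 CPM in sutured patch replicate 5, with 14.3 CPM in the next. ENSRNOG00000030848 stood at 381 CPM in MI replicate 1, with 159 CPM in the next, so that the MI libraries that set its near-threshold value against Sham were uneven.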

How the results depend on the processing

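The 6975 genes called against Sham ranged from 6477 to 7774 with 1 library left out (3288 to 3980 higher, 3189 to 3794 lower), and a 1.5-fold minimum gave 3984 (2128 higher, 1856 lower). Fits of 2 groups gave 4979 (2433 higher, 2546 lower) and limma-voom 8243. The main fit shared its estimate of spread over the 4 groups. Estimated in each group alone, the spread beyond counting error was 51.8% in Sham, 33.9% with the sutured patch and 21.3% in MI. Genes called here and not in MI numbered 1522 to 2131 with 1 library left out and 1045 when each comparison was fitted on its 2 groups. The set of 239 genes moved most: 101 to 485 with 1 library left out, 791 with limma-voom, 433 with fits of 2 groups, 145 without the microneedle patch libraries, 40 with a 1.5-fold minimum and 573 without Sham replicates 4 and 5. Genes close to Sham ranged from 1931 to 2633 with 1 library left out, with 3426 when low counts were not filtered (more genes tested) and 1264 in fits of 2 groups. The difference in distance from Sham between sutured patch and MI was 0.13 to 0.21 with 1 library left out (exact permutation p from 0.00433 to 0.0433), and as percent of counts misplaced it was 1.91 (p = 0.299). The cause of these moves was otherwise not tested. Same-numbered sutured patch and Sham libraries deviated together with r from -0.05 to 0.44, over 0.1 in 2 of 6 pairs, and sutured patch and MI libraries with r from -0.02 to 0.37, over 0.1 in 5 of 6 pairs. Not every pair passed in either case, so the numbers were not taken to pair them; 2 of 6 (with Sham) and 3 of 6 (with MI) sutured patch libraries correlated best with their own number. The difference in distance tested on pairs stayed called (0.17, exact permutation p = 0.0312), and with the replicate block 6963 genes were called and the set held 277. Depth limits rare genes most, in Sham above all.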
